A study of Mus musculus with 8 samples.

Results

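Circadian clock genes were described in mouse liver RNA that had been hybridised to Affymetrix expression arrays. The 10 genes were Arntl, Clock, Npas2, Per1, Per2, Per3, Cry1, Nr1d1, Nr1d2 and Dbp, of 12393 genes measured. A probe set, the group of short probes that reports 1 transcript, was used if the array annotation gave it exactly 1 of these symbols. That rule found 17 probe sets, 1 to 3 for each gene, and each gene is given by the probe set whose mean over the arrays was highest, with the others as a check. The 8 arrays came from 4 genotypes on a C57BL background, 2 arrays each: wild-type mice, mice with a knockout of SHP (SHP-/-), mice with a knockout of leptin (OB-/-) and double knockout mice (OB-/-/SHP-/-). SHP, encoded by Nr0b2, is a nuclear receptor that represses other nuclear receptors and carries no DNA-binding domain, and leptin is a hormone that fat tissue secretes and that curbs appetite. All mice were fed standard chow without restriction. The sources used here give no age, sex, hour of tissue collection or light cycle, nor whether replicate arrays stand for separate animals, so the spread behind the p-values is that between these samples and may be technical.

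The circadian clock is a transcriptional loop that runs in nearly every cell with a period of about a day. Its activators, ARNTL (also called BMAL1) bound to CLOCK or to its relative NPAS2, switch on the Per and Cry genes through E-boxes, and the PER and CRY proteins then repress the activators. A further loop is closed by the nuclear receptors NR1D1 and NR1D2 (REV-ERB alpha and beta), which repress Arntl and Npas2 at ROR elements. DBP is a clock output: a factor of the PAR bZIP family that activates liver genes through D-boxes, where NFIL3 opposes it. In rodent liver Arntl and Npas2 peak in antiphase to Nr1d1, Dbp and Per3. Fasting, feeding time and glucocorticoids can shift the liver clock.

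Promoter sequences are shown for the members whose windows held a motif of this loop. The windows of Clock, Npas2, Nr1d2 and Dbp held none of the motifs searched. RefSeq windows of GRCm38.p6, 250 bases before to 50 bases after a transcription start, were found for 9 of 10 members (13 windows) and not for Per2. The motifs searched on both strands, with no overlap between their matches, were the E-box CACGTG, its variant CACGTT, the D-box TTANGTAA and the ROR element TAGGTCA. Over all 32851 windows, 7.15% held CACGTG, 4.68% held CACGTT, 2.32% held TTANGTAA and 2.61% held TAGGTCA. Of the 13 member windows, 2 held CACGTG, 2 held CACGTT, 1 held TTANGTAA and 1 held TAGGTCA. The Per3 window held the D-box letters at 205 and 158 bases before the start, and no other member window held them. The E-box stood 166 bases before the start of Per1 and 60 bases before that of Cry1, CACGTT 79 bases before the start of Cry1 and 28 bases before that of Nr1d1, and the ROR element 31 bases after a start of Arntl. A match is a description of these letters and not evidence of binding. The stretches below run 5′ to 3′ on the gene's strand, up to the base before the start, with the matches in capitals. The Arntl stretch is 30 bases around its ROR element.
Per3, chr4:151044666-151044915, minus strand: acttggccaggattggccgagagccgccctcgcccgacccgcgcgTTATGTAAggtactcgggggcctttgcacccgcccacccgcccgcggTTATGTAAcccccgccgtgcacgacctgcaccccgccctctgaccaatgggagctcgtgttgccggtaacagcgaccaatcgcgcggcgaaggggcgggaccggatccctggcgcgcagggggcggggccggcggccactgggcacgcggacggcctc
Per1, chr11:69098699-69098948, plus strand: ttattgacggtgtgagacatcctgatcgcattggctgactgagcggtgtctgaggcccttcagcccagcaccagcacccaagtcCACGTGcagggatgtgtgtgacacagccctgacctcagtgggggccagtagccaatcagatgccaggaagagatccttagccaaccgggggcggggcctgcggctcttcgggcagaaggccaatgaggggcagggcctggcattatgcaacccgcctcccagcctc
Cry1, chr10:85185055-85185304, minus strand: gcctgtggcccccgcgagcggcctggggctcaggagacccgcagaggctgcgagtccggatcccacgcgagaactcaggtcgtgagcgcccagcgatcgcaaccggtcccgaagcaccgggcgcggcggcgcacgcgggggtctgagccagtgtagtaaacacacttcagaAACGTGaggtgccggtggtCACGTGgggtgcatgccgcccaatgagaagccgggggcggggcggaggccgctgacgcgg
Nr1d1, chr11:98775378-98775627, minus strand: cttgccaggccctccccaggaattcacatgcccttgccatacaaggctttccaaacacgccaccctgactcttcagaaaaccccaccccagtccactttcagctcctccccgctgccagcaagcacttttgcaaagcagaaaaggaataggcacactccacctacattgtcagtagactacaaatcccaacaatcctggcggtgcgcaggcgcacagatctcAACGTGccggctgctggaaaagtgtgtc
Arntl, chr7:113207529-113207558, plus strand: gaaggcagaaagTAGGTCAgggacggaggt

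The arrays carried the liver signature that their label gives: 9 of 10 hepatocyte markers were measured, at log2 levels between 11.19 and 14.07. Nr0b2 read 8.74 and 8.71 on the wild-type arrays, 7.78 and 8.31 on the SHP-/- arrays, 8.01 and 8.01 on those of OB-/- and 7.11 and 6.66 on those of OB-/-/SHP-/-. It is not known here whether its probe set lies in the deleted part. The SHP-/- arrays stood apart from each other: 96 genes differed by more than 1 log2 unit between them, against 18 for the wild-type pair, 7 for the OB-/- pair and 54 for the OB-/-/SHP-/- pair. Between these arrays Fos, an immediate-early gene, went from 11.95 on replicate 1 to 6.98 on replicate 2, and Saa2, of the acute phase response, from 8.98 to 12.23. Xist read 7.41 on OB-/- replicate 1 and 4.31 to 4.70 elsewhere. Eif2s3y, on the Y chromosome, read 6.57 to 7.50 on every array. The part of the Xist difference in the clock gene values was not tested. The Gapdh 3′ minus 5′ probe set difference, which widens as RNA degrades, was 0.79 and 1.00 on the wild-type arrays, 0.19 and 0.35 on the SHP-/- arrays, -0.07 and -0.01 on those of OB-/- and 0.03 and 0.11 on those of OB-/-/SHP-/-.

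Averaged over the SHP genotypes, Nr1d1 was called lower and Npas2 higher without leptin. Per2 was called higher in the double knockout than in each other genotype. Neither the other Per2 probe set nor the mean of both gave any of these calls. Nr1d1 did not pass between OB-/-/SHP-/- and SHP-/-, nor Npas2 between OB-/- and wild-type. Npas2 was dim, and its other probe set gave the opposite direction for averaged leptin loss. All these calls leaned on single arrays. For averaged leptin loss 3 of 10 members were called, beside 26.4% of all genes. The remaining 7 genes passed no comparison between genotypes. Dbp, Per3 and Arntl differed more between the SHP-/- arrays than between the means of any genotypes. Levels are on the deposited log2 scale, and differences are log2 differences between genotype means with moderated standard errors (SE, n = 2 arrays per genotype). A gene was called at a limma adjusted p below 0.05 over all 12393 genes.

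**Figure D1:**
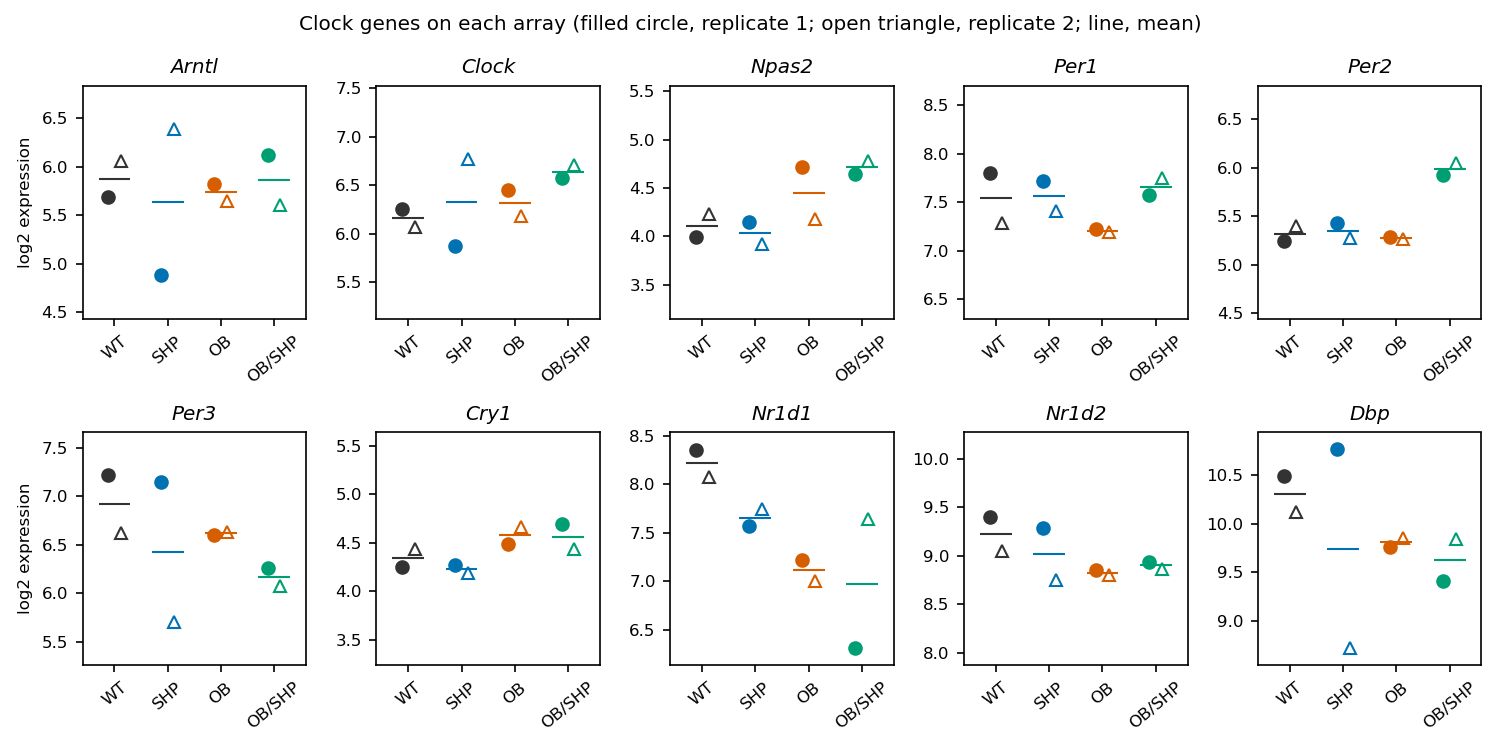
Log2 expression (vertical axis, each panel with its own range) of the 10 clock genes on each of the 8 arrays by genotype (horizontal axis; WT, wild-type; SHP, SHP-/-; OB, OB-/-; OB/SHP, OB-/-/SHP-/-). Filled circles are replicate 1, open triangles replicate 2 and lines the genotype mean; Nr1d1 is highest in wild-type (8.36 and 8.08), Per2 is highest in OB-/-/SHP-/- (5.92 and 6.05), and the SHP-/- arrays lie far apart for Dbp, Per3 and Arntl.

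Among the activators, Arntl read 5.69 and 6.06 on the wild-type arrays, 4.88 and 6.38 on the SHP-/- arrays, 5.83 and 5.65 on those of OB-/- and 6.12 and 5.60 on those of OB-/-/SHP-/-. The lowest and the highest of the 8 values were both SHP-/- arrays, so every other genotype lay within the range of that one. Leptin loss averaged over the SHP genotypes gave a difference of 0.05 ± 0.26 (95% interval -0.53 to 0.62, adjusted p = 0.920), and SHP loss averaged over the leptin genotypes gave -0.06 ± 0.26 (-0.63 to 0.52, adjusted p = 0.968). No direction is drawn for Arntl.

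Clock, the histone acetyltransferase partner of ARNTL, read 6.26 and 6.06 on the wild-type arrays, 5.88 and 6.77 on the SHP-/- arrays, 6.45 and 6.18 on those of OB-/- and 6.57 and 6.71 on those of OB-/-/SHP-/-. Again the SHP-/- arrays were the lowest and the highest. OB-/-/SHP-/- minus wild-type was 0.48 ± 0.24 (95% interval -0.05 to 1.00, adjusted p = 0.213), while the other Clock probe set gave -0.33 ± 0.24. The probe sets of Clock thus disagreed in sign, and neither passed.

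Npas2, the paralogue of Clock, read 3.99 and 4.23 on the wild-type arrays, 4.15 and 3.92 on the SHP-/- arrays, 4.72 and 4.18 on those of OB-/- and 4.65 and 4.78 on those of OB-/-/SHP-/-. Of the 4 leptin-null arrays 3 were above all leptin-intact ones, and OB-/- replicate 2 fell among them. Leptin loss averaged over the SHP genotypes raised it 1.42-fold, by 0.51 ± 0.13 (adjusted p = 0.0144). It rose by 0.68 ± 0.18 in OB-/-/SHP-/- against SHP-/- (adjusted p = 0.0387) and by 0.60 ± 0.18 against wild-type (adjusted p = 0.0481), while OB-/- minus wild-type was 0.33 ± 0.18 (adjusted p = 0.264). Npas2 was dim, at a mean of 4.33, below the 40th percentile of probe sets (4.83). Its other probe set, at 3.44, gave -0.053 ± 0.094 for leptin loss, in the opposite direction and not past the test. The averaged call was lost without wild-type replicate 1 (adjusted p = 0.0668) or OB-/- replicate 1 (adjusted p = 0.0563). The call against SHP-/- held without either OB-/- array and was lost without each of the other 6 (adjusted p up to 0.178) and under quantile normalisation (0.0732). With the mean of both Npas2 probe sets none of its 3 calls held (adjusted p 0.0897 to 0.155). The call against wild-type was lost without each wild-type and each OB-/-/SHP-/- array (adjusted p up to 0.256), under quantile normalisation (0.0756), with equal array medians (0.0651) and with the replicate number as a block (0.0520).

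Of the repressors, Per1, which glucocorticoids and cAMP signals also induce, read 7.80 and 7.29 on the wild-type arrays, 7.72 and 7.40 on the SHP-/- arrays, 7.22 and 7.19 on those of OB-/- and 7.57 and 7.75 on those of OB-/-/SHP-/-. The OB-/- arrays were the 2 lowest. The difference of OB-/-/SHP-/- from them was 0.45 ± 0.18 (95% interval 0.05 to 0.85), which did not pass over all genes (adjusted p = 0.338), and leptin loss averaged over the SHP genotypes was -0.12 ± 0.13 (-0.40 to 0.16, adjusted p = 0.538).

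Per2 was the only member, 1 of 10, to pass in the comparison of SHP loss among leptin-null mice, where 2.14% of all genes passed. It read 5.24 and 5.40 on the wild-type arrays, 5.43 and 5.27 on the SHP-/- arrays, 5.29 and 5.26 on those of OB-/- and 5.92 and 6.05 on those of OB-/-/SHP-/-, so that both double knockout arrays lay above all others and the rest lay between 5.24 and 5.43. Per2 rose 1.63-fold in OB-/-/SHP-/- against OB-/- (0.71 ± 0.14, adjusted p = 0.0196), 1.55-fold against SHP-/- (0.63 ± 0.14, adjusted p = 0.0139) and 1.58-fold against wild-type (0.66 ± 0.14, adjusted p = 0.00778). These comparisons share the double knockout arrays. Neither single knockout differed detectably from wild-type: SHP-/- was at 0.03 (95% interval -0.27 to 0.33) and OB-/- at -0.05 (-0.34 to 0.25). The test of the difference itself, the interaction of SHP loss with leptin loss, was 0.68 ± 0.19 and did not pass (adjusted p = 0.234), so a difference of the SHP effect between leptin backgrounds is not shown. Leptin loss averaged over the SHP genotypes raised Per2 by 0.29 ± 0.10 (adjusted p = 0.0420), but that call was lost when any array other than OB-/-/SHP-/- replicate 1 was left out (adjusted p up to 0.135), under quantile normalisation (0.0617), with equal array medians (0.0671), with eBayes trend (0.0791) and with the replicate number as a block (0.0518).

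The double knockout calls of Per2 leaned on single arrays and on the probe set. Leaving out OB-/- replicate 1, OB-/- replicate 2 or OB-/-/SHP-/- replicate 2 ended the call against OB-/- (adjusted p 0.115 to 0.164). The call against SHP-/- was lost without SHP-/- replicate 2 or OB-/-/SHP-/- replicate 2 (adjusted p = 0.0885 and 0.0832) and in a fit to only the arrays compared (0.0521). That against wild-type was lost without wild-type replicate 1 (adjusted p = 0.0691) or OB-/-/SHP-/- replicate 2 (0.0515). In each case the difference stayed between 0.56 and 0.72. The other Per2 probe set, at a mean of 4.98, read 4.93 and 4.21 on the wild-type arrays, 5.82 and 4.56 on the SHP-/- arrays, 4.98 and 4.91 on those of OB-/- and 5.83 and 4.62 on those of OB-/-/SHP-/-. Here SHP-/- replicate 1 was nearly as high as OB-/-/SHP-/- replicate 1, and the second arrays of both were low. Its differences for the double knockout had the same sign, at 0.29, 0.04 and 0.66 against OB-/-, SHP-/- and wild-type, each with an SE of 0.43 and none past the test (adjusted p = 0.890, 0.971 and 0.359). With the mean of both probe sets, none of the 3 was called (adjusted p = 0.465, 0.418 and 0.0948).

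Per3 read 7.22 and 6.62 on the wild-type arrays, 7.15 and 5.70 on the SHP-/- arrays, 6.61 and 6.63 on those of OB-/- and 6.26 and 6.07 on those of OB-/-/SHP-/-. Both double knockout arrays lay below both wild-type arrays. The difference between double knockout and wild-type was -0.76 ± 0.36 (95% interval -1.54 to 0.03, adjusted p = 0.184) when the spread was estimated from all 8 arrays. With both SHP-/- arrays left out, an alternative added after their values had been seen, the same difference was called (adjusted p = 0.0166). The other Per3 probe sets were dimmer, at means of 4.98 and 4.92, and gave 0.05 and -0.20 for that difference.

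Cry1, a strong repressor of the activator complex, lay below the 40th percentile of probe sets, with 4.25 and 4.44 on the wild-type arrays, 4.27 and 4.19 on the SHP-/- arrays, 4.48 and 4.67 on those of OB-/- and 4.69 and 4.43 on those of OB-/-/SHP-/-. Of the leptin-null arrays 3 lay above every leptin-intact array, and OB-/-/SHP-/- replicate 2 lay just below the highest of those. Leptin loss averaged over the SHP genotypes was 0.28 ± 0.10 (95% interval 0.05 to 0.51, adjusted p = 0.0707), short of the threshold. Without OB-/-/SHP-/- replicate 2 it was 0.35 and was called (adjusted p = 0.0492).

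The nuclear receptor Nr1d1 gave the largest difference between genotypes among the members. It read 8.36 and 8.08 on the wild-type arrays, 7.57 and 7.74 on the SHP-/- arrays, 7.22 and 7.01 on those of OB-/- and 6.31 and 7.64 on those of OB-/-/SHP-/-. Both wild-type arrays were above all others. OB-/-/SHP-/- replicate 2 lay within the SHP-/- values while replicate 1 was the lowest of all. From wild-type to OB-/- it fell by 1.11 ± 0.32 on the log2 scale (adjusted p = 0.0350), and from wild-type to OB-/-/SHP-/- by 1.24 ± 0.32, or 2.37-fold (-1.24, adjusted p = 0.0229). Averaged over the SHP genotypes, leptin loss lowered it 1.86-fold (-0.89 ± 0.23, adjusted p = 0.0130). OB-/-/SHP-/- minus SHP-/- was -0.68 ± 0.32 (adjusted p = 0.206), and SHP-/- minus wild-type -0.56 ± 0.32 (adjusted p = 0.808). Nr1d1 was measured by 1 probe set.

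The Nr1d1 calls leaned on single arrays. The fall in OB-/- was lost without either wild-type array or either OB-/- array (adjusted p 0.0985 to 0.212) and under quantile normalisation (adjusted p = 0.0525), with the difference staying between -1.25 and -0.97. Leaving out wild-type replicate 1 or 2 ended the call between wild-type and double knockout (adjusted p = 0.154 and 0.0797), and so did leaving out OB-/-/SHP-/- replicate 1, which brought the difference to -0.58 (adjusted p = 0.0657). The averaged fall was lost without wild-type replicate 1 (adjusted p = 0.0636) or OB-/- replicate 2 (0.0554). Without OB-/-/SHP-/- replicate 2, OB-/-/SHP-/- minus SHP-/- became -1.34 and was called (adjusted p = 0.00278).

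Its paralogue Nr1d2 read 9.40 and 9.05 on the wild-type arrays, 9.29 and 8.75 on the SHP-/- arrays, 8.85 and 8.80 on those of OB-/- and 8.94 and 8.86 on those of OB-/-/SHP-/-. The leptin-null arrays lay together between 8.80 and 8.94, and SHP-/- replicate 2 was below them. OB-/- minus wild-type was -0.40 ± 0.19 (95% interval -0.80 to 0.01, adjusted p = 0.184). The dimmer Nr1d2 probe set gave 0.62 ± 0.22 for the same difference (adjusted p = 0.0901), so the probe sets disagreed in sign and neither passed.

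The output gene Dbp read 10.50 and 10.12 on the wild-type arrays, 10.77 and 8.72 on the SHP-/- arrays, 9.76 and 9.86 on those of OB-/- and 9.41 and 9.85 on those of OB-/-/SHP-/-. All leptin-null arrays lay below both wild-type arrays, while the SHP-/- arrays held the highest and the lowest value. Leptin loss averaged over the SHP genotypes was -0.31 ± 0.33 (95% interval -1.03 to 0.42, adjusted p = 0.542). For the double knockout against wild-type it was -0.68 ± 0.47 (adjusted p = 0.374). It was called at the same size once both SHP-/- arrays were left out (adjusted p = 0.0243), since they no longer entered the spread. Against SHP-/-, the double knockout was at -0.11 with both arrays, at 0.91 (adjusted p = 0.0281) without SHP-/- replicate 1 and at -1.14 (adjusted p = 0.00999) without SHP-/- replicate 2, so the direction turned with the array used. The other Dbp probe set gave the same signs in every comparison, with 9.55 and 7.59 on the SHP-/- arrays.

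**Figure D2:**
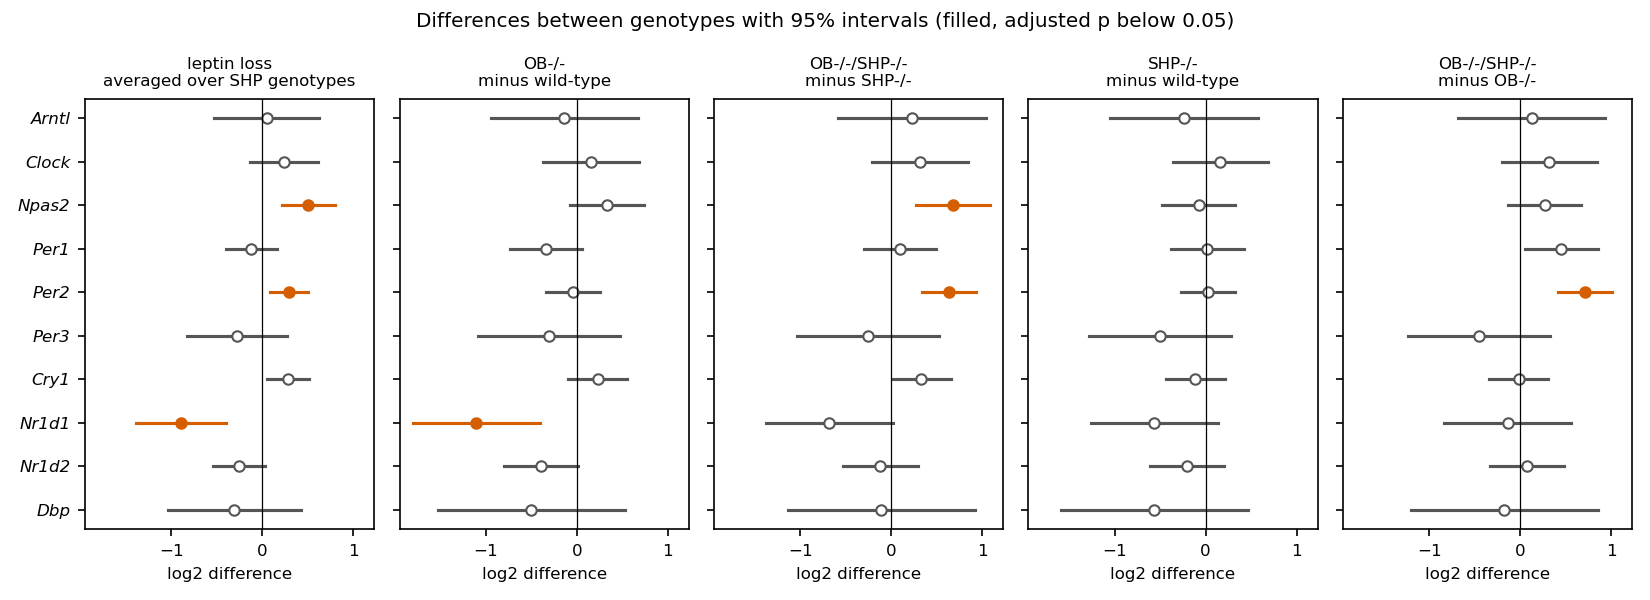
Log2 differences between genotypes (horizontal axis) of the 10 clock genes (rows) in 5 comparisons (panels), with 95% intervals from the limma fit to 8 arrays; filled orange points passed an adjusted p of 0.05. Npas2, Per2 and Nr1d1 hold all the filled points, and the intervals of Dbp, Per3 and Arntl are the widest.

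Counted over the members, leptin loss averaged over the SHP genotypes called 3 of 10 (Npas2 and Per2 up, Nr1d1 down) where 26.4% of all genes were called, a share close to the background. OB-/- minus wild-type called 1 of 10 against 16.9%, OB-/-/SHP-/- minus SHP-/- 2 of 10 against 10.6%, and OB-/-/SHP-/- minus wild-type 3 of 10 against 15.9%. In no member did all 4 leptin-null arrays lie apart from all 4 leptin-intact arrays, against 25.2% of all genes. The median difference over the members for averaged leptin loss was -0.04, and that over all genes 0.02. Which members passed changed with the array left out. Without SHP-/- replicate 2, averaged leptin loss was -0.82 for Dbp, -0.64 for Per3, -0.39 for Nr1d2 and 0.46 for Clock. With all arrays these differences were -0.31, -0.28, -0.26 and 0.24. The other probe sets gave, with all arrays, -0.30 for Dbp, 0.04 and 0.18 for Per3, 0.33 for Nr1d2 and -0.27 for Clock. Only that of Dbp kept its direction. Without SHP-/- replicate 2, OB-/-/SHP-/- minus SHP-/- was 0.98 for Arntl, 0.76 for Clock, -1.14 for Dbp and -0.98 for Per3.

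SHP loss called few members. SHP-/- minus wild-type called 0 of 10 against 0.323% of all genes, with 0 members at an unadjusted p below 0.05 by limma. OB-/-/SHP-/- minus OB-/- called 1 of 10, Per2, against 2.14%. SHP loss averaged over the leptin genotypes called 0 of 10 against 1.9%, with 1 member at an unadjusted p below 0.05, Per2 at 0.37 ± 0.10 (adjusted p = 0.0951). Without SHP-/- replicate 1, Dbp (-1.59, adjusted p = 0.00524) and Per3 (-1.22, adjusted p = 0.0375) were called lower in SHP-/- than in wild-type. That comparison then rests on the single remaining SHP-/- array, assumed to vary like the other genotypes. The interaction called 0 of 10 against 0.549%, with 1 member, Per2, at an unadjusted p below 0.05. The interaction estimates ran from 0.05 to 0.68, but those of Arntl, Clock, Per3, Cry1, Nr1d1 and Dbp turned below 0 when 1 array was left out. Averaged SHP loss likewise called Dbp (-0.89) and Per3 (-0.84) without SHP-/- replicate 1, and Nr1d1 (-0.68) without OB-/-/SHP-/- replicate 2.

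For Dbp, Per3, Arntl and Clock the arrays of SHP-/- differed more than the genotype means did. In SHP-/-, replicate 1 exceeded replicate 2 by 2.05 for Dbp (4.14-fold) and by 1.45 for Per3 (2.73-fold). For Arntl it was lower by 1.51 (-1.51, 2.84-fold), and for Clock by 0.89 (-0.89). By size these gaps ranked 17 for Dbp, 30 for Arntl, 35 for Per3 and 133 for Clock among 12393 genes. Of the members, 3 of 10 differed by more than 1 between the SHP-/- arrays, against 0.775% of all genes. The members were chosen with earlier results of these data known, so their share is a description. Nr1d2 differed by 0.54 and Per1 by 0.32 in the direction of Dbp. Nr1d1 differed by -0.18, against the direction of Dbp, and the dim Npas2 by 0.22, against that of Arntl. Per2 differed by 0.15 and Cry1 by 0.09. SHP-/- replicate 1 thus combined high Dbp and Per3 with low Arntl and Clock, and replicate 2 showed the converse. On the probe sets used, Nr1d1 and Npas2 did not follow this split. The other probe sets of Dbp (9.55 and 7.59), Clock (5.95 and 6.70) and Nr1d2 (6.49 and 5.95) moved as the ones used. That of Per2 (5.82 and 4.56) moved in the direction of Dbp, unlike the one used. The dimmer Per3 probe sets (4.81 and 4.83, 4.79 and 4.64) showed little of the split.

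Outside SHP-/-, the only gap over 1 on the probe sets used for the members was that of Nr1d1 in the double knockout. The other Per2 probe set, at 5.83 and 4.62 on the OB-/-/SHP-/- arrays, was also more than 1 apart. In OB-/-/SHP-/-, Nr1d1 was 1.33 lower in replicate 1 (-1.33, 2.51-fold), which ranked 13 among all genes, beside Dbp at -0.43 and Arntl at 0.52. In wild-type the widest gaps were those of Per3 (0.59), Per1 (0.52), Dbp (0.37), Arntl (-0.37) and Nr1d2 (0.35). In OB-/- the median gap of the members, 0.14, was close to that of all genes, 0.15, and Npas2 at 0.54 was the widest. The median gap of the members was 0.43 in SHP-/-, where that of all genes was 0.15, and 0.32 in wild-type, where that of all genes was 0.16. For Cry1 (0.09) and Nr1d1 the SHP-/- gap was the smallest of the 4 genotypes.

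**Figure D3:**
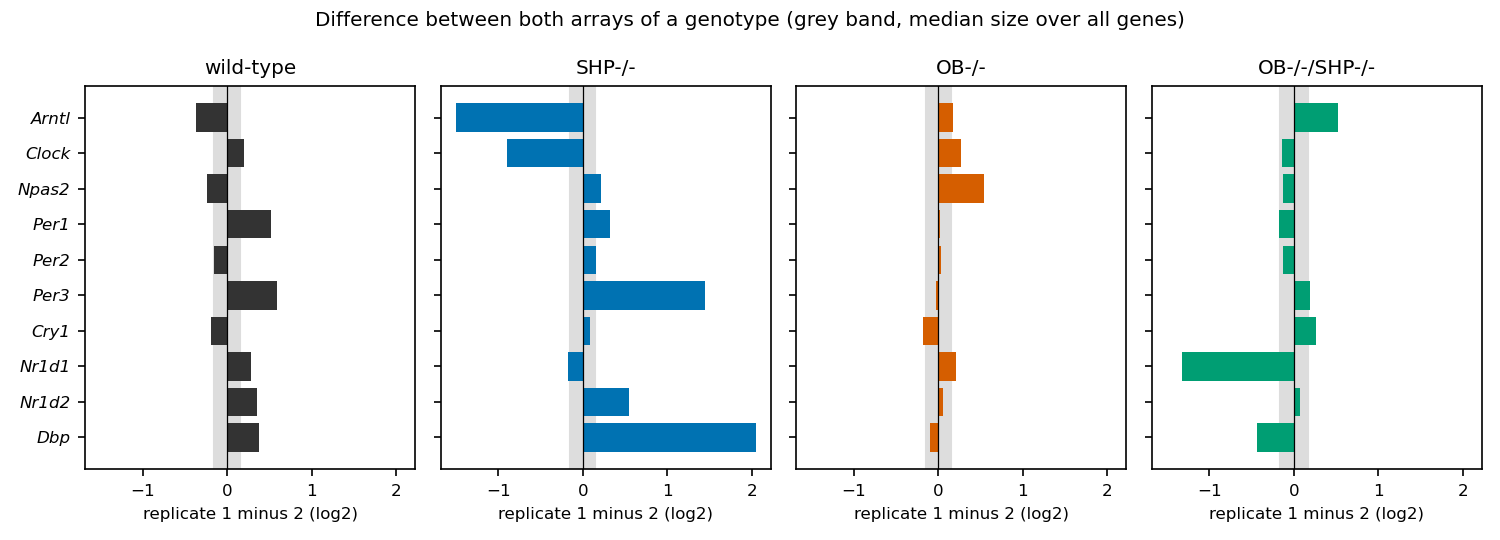
Replicate 1 minus replicate 2 in log2 units (horizontal axis) for the 10 clock genes (rows) in each genotype (panels); the grey band spans the median size of this difference over all 12393 genes, to either side of 0. Dbp (2.05), Per3 (1.45), Arntl (-1.51) and Clock (-0.89) in SHP-/- and Nr1d1 (-1.33) in OB-/-/SHP-/- reach far outside the band.

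Known outputs of the clock also differed between the SHP-/- arrays, in both directions. In a list of PAR bZIP factors and other clock outputs, 10 of 20 measured genes differed by more than 1 between these arrays, 4 higher and 6 lower on replicate 1. Over all genes that share was 0.775%. The list was chosen with earlier results of these data known, so its share is given as a description. The pairs of wild-type and of OB-/- gave 0 such list genes, and that of OB-/-/SHP-/- gave 1, Rgs16. Upp2, a uridine phosphorylase, was 10.67 and 7.85 in SHP-/- replicates 1 and 2, and Wee1, a kinase of cell cycle control, 7.85 and 6.40. Alas1, the first enzyme of heme synthesis and a target of DBP, differed by 1.41 and Rgs16 by 1.86 in the same direction. Lower on replicate 1 were Elovl3 (-1.62), Slc45a3 (-1.46), Insig2 (-1.20), Avpr1a (-1.17), Cdkn1a (-1.10) and Nfil3 (-1.05). The ubiquitin protease Usp2, the 1 of 19 other clock genes past that size, was 9.17 and 6.86. The DBP relative Tef was 10.27 and 9.55, and Nfil3, which opposes DBP at the D-box, was 6.50 and 7.56. Fos and Saa2, named above, and the acute phase genes Orm2 (-3.03) and Lcn2 (-2.64) differed between the same arrays, and the mean of 6 macrophage markers was 7.49 on replicate 1 and 6.66 on replicate 2. The part of these genes and cells in the clock gene values was not tested.

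**Figure D4:**
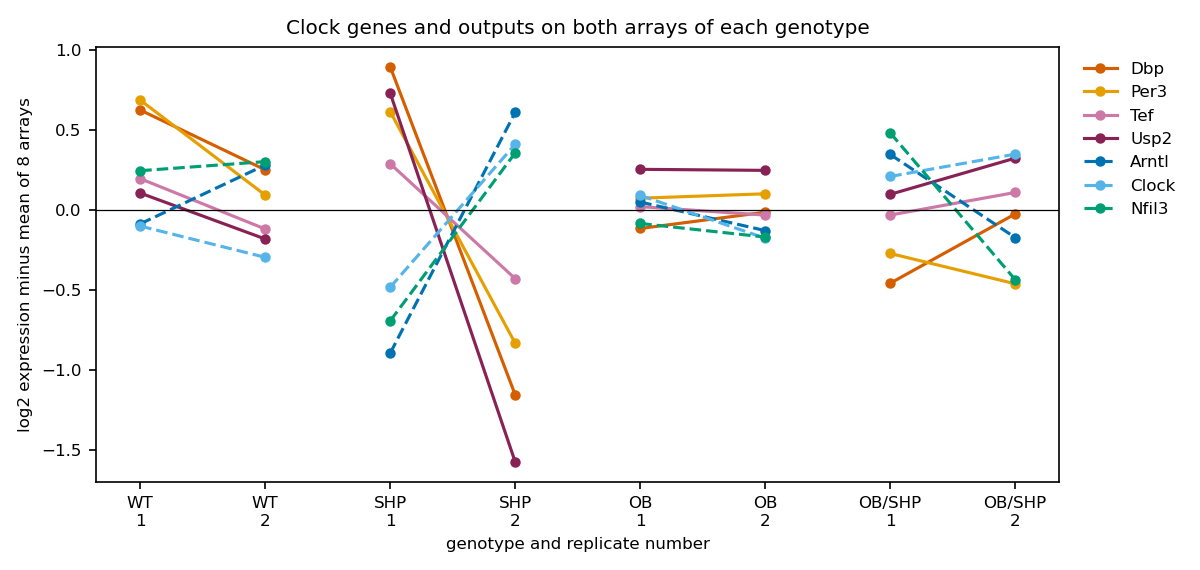
Log2 expression minus the mean of the 8 arrays (vertical axis) on both arrays of each genotype (horizontal axis; WT, wild-type; SHP, SHP-/-; OB, OB-/-; OB/SHP, OB-/-/SHP-/-), with lines joining the arrays of a genotype. Solid lines are Dbp, Per3, Tef and Usp2, dashed lines are Arntl, Clock and Nfil3; both sets cross between the SHP-/- arrays and stay close together in OB-/-.

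The genes most like Dbp and Arntl over the arrays were sought among 6982 others with a mean of at least 5.50, the median of all values. Likeness was Pearson's r over the 8 arrays, which fall into 4 genotypes and share the wide SHP-/- gap, so it is a description. Most like Dbp were Per3 (0.92), Mapre2 (0.89), Tef (0.88), Svep1 (0.86) and Mapk8 (0.84), and least like it Orm2 (-0.98), Lcn2 (-0.93), Clpx (-0.93), Zfand2a (-0.91) and Tgoln1 (-0.90). Over the 6 arrays without SHP-/-, r with Dbp was 0.79 for Per3, 0.47 for Tef, -0.98 for Orm2 and -0.89 for Lcn2. Most like Arntl were Tubg1 (0.90), Pim1 (0.90), Orm2 (0.89), Usp39 (0.89) and Nfil3 (0.88), and least like it Rpl22l1 (-0.90), Map2k6 (-0.87), Jun (-0.86), Tef (-0.86) and Thap4 (-0.85). Over the 6 arrays these became 0.81 for Nfil3, 0.44 for Orm2, -0.66 for Tef and -0.08 for Jun. Arntl and Dbp themselves stood at -0.82 over 8 arrays and at -0.39 over 6, and Nr1d1 and Dbp at 0.36 over 8 and 0.94 over 6.

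Among the other clock genes, 19 of 25 listed were measured, and averaged leptin loss called 4 of 19, 1 up and 3 down (median -0.10), a share below the 26.4% of all genes called. Hdac3, the deacetylase through which NR1D1 represses, rose by 0.60 ± 0.11 (adjusted p = 0.00198). Rora, the activator that competes with NR1D1 at ROR elements, fell by 0.53 ± 0.10 (adjusted p = 0.00277), and so did Ddb1 (-0.45) and Btrc, an F-box protein that marks PER for degradation (-0.36). The call of Btrc was lost without wild-type replicate 2 or OB-/- replicate 2 (adjusted p up to 0.0596). Averaged SHP loss and the interaction called 0 of 19 by limma, with 3 and 2 at an unadjusted p below 0.05. The SHP comparisons among leptin-intact and among leptin-null mice also called 0 of 19, with 0 and 4.

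Of the 20 measured clock outputs, averaged leptin loss raised 5 and lowered 5, beside 26.4% of all genes. Of the 5 lowered genes, Klf10 and Klf13 lost their calls without 7 of 8 single arrays (adjusted p up to 0.127 and 0.126) and Tspan4 without 5 (up to 0.0922), so that without wild-type replicate 1 only Avpr1a and Gys2 stayed called lower. Among the raised genes, Slc45a3 was lost without wild-type replicate 2 or OB-/- replicate 1 (adjusted p up to 0.0575). Avpr1a, a vasopressin receptor, fell by 2.74 ± 0.23, and the glycogen synthase Gys2 fell by 0.80 ± 0.16. Cdkn1a, an inhibitor of the cell cycle, rose by 1.67 ± 0.21, Insig2, a brake on sterol synthesis, by 1.13 ± 0.21, Nampt, which makes the NAD precursor that feeds SIRT1, by 0.87 ± 0.19, and the PAR bZIP gene Hlf by 0.43 ± 0.10 (adjusted p = 0.00904). Averaged SHP loss called 1 of 20, the transferrin receptor Tfrc, which fell by 0.80 ± 0.13 (adjusted p = 0.00944) and was lost without wild-type replicate 2 or OB-/- replicate 1 (adjusted p up to 0.0686).

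Genes of signals known to reach the clock were counted beside 26.4% of all genes called for averaged leptin loss and 1.9% for averaged SHP loss. Of 14 genes induced by glucocorticoids, averaged leptin loss raised 2 and lowered 5, and averaged SHP loss raised 4 and lowered 0 (medians 0.01 and 0.42). With leptin loss, Tat lost its call without 5 of 8 single arrays (adjusted p up to 0.130) and Pck1 without 4 (up to 0.0768). With SHP loss, Tsc22d3 lost its call without 6 of 8. Sult1e1, the estrogen sulfotransferase, rose by 4.96 ± 0.33 with leptin loss and by 2.09 ± 0.33 with SHP loss. Its SHP-/- arrays read 4.73 and 6.83, and the call for SHP loss ended without any single wild-type or OB-/- array (adjusted p up to 0.0679). Fkbp5, a co-chaperone of the glucocorticoid receptor, rose by 0.78 ± 0.12 with SHP loss (adjusted p = 0.00635) and Gadd45b by 0.92 ± 0.11 (adjusted p = 0.00151), while Tsc22d3 fell by 0.61 ± 0.10 with leptin loss (adjusted p = 8.9e-04). Of 12 measured genes of the response to heat and cold, averaged leptin loss lowered 6 and raised 1. Hsph1 fell by 2.41 ± 0.11 and Hspa1b by 2.84 ± 0.18, and Cirbp, the RNA-binding protein induced by cold, rose by 0.82 ± 0.12. Of 15 immediate-early genes 3, a share below that of all genes, fell with averaged leptin loss, Egr1 by 2.51 ± 0.38, Ier2 by 1.34 ± 0.34 and Junb 2.02-fold. The call of Ier2 was lost without wild-type replicate 1 or OB-/- replicate 2 (adjusted p up to 0.0617). Junb lost its call without wild-type replicate 2 or any leptin-null array (adjusted p up to 0.127). SHP-/- replicate 1 was the highest array for Egr1, Ier2 and Junb, and without it the differences were -1.94, -0.80 and -0.58, all still called. The part of these signals in the values of Nr1d1, Npas2 and Per2 was not tested.

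Markers of other cell types moved with leptin loss too. Averaged leptin loss called 12 of 25 measured markers higher and 3 lower, beside 26.4% of all genes called in either direction. The mean log2 level of 6 macrophage markers was 6.34 and 6.24 in wild-type, 7.49 and 6.66 in SHP-/- replicates 1 and 2, and 7.42 to 7.68 on the leptin-null arrays. That of 4 pancreas markers was 7.32 and 6.51 in OB-/- and 4.55 to 4.95 elsewhere. The mean of 4 endothelial markers was 5.80 to 6.33 on the leptin-intact and 6.51 to 6.71 on the leptin-null arrays. Markers within these lists did not move alike. Pecam1 and Cdh5 were higher on every leptin-null array than on any leptin-intact one, while Stab2 and Kdr overlapped. Of the pancreas markers, Cela1 was lower on every leptin-null array than on any leptin-intact one. Prss2 (4.53 and 4.75) and Clps (4.28 and 4.20) were also higher in OB-/-/SHP-/- than on the leptin-intact arrays. The Gapdh offset was 0.79 and 1.00 in wild-type, where Nr1d1 was highest. It was 0.19 and 0.35 in SHP-/-, which has leptin, and at most 0.11 in both leptin-null genotypes. In bulk liver, fewer cells of a type and less RNA per cell cannot be told apart, and the part of cell makeup and RNA quality in the leptin differences was not tested.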

How the data were processed

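Per the submitters' processing notes, the authors processed the 8 Affymetrix arrays with R 2.15.0. The deposited values were read as log2 expression per probe set, from their range of 2.20 to 14.19 and array medians of 5.45 to 5.56; the sources used here do not give the log base, background correction or summarisation. The number of arrays limits the precision, since arrays have no read depth. Of 22690 probe sets 64 were controls and were left out; of the rest, 20380 named 1 gene, 691 several and 1555 none in the array annotation, and 12393 genes remained with the brightest probe set of each. Genotypes and replicate numbers came from the sample titles. With limma 3.58.1 (lmFit and eBayes, R 4.3.3), 1 mean was estimated for each genotype from the 8 arrays jointly, with 4 residual and 7.16 prior degrees of freedom, no filter and no pseudocount. Tests were two-sided, with Benjamini-Hochberg adjustment over all genes within each of 8 comparisons. The fit was tested on simulated data.

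The members and lists were chosen with earlier results of these data known. All members were named; list genes past the threshold were to be named up to 6 per comparison, and are given here for the averaged comparisons, as counts or examples where several passed. For Dbp and Arntl the 5 most and 5 least correlated genes were named. Alternatives were quantile normalisation, equal medians, a filter on dim genes, eBayes with trend, averaging the probe sets of a gene, no x_at or s_at probe sets, only the arrays compared, a replicate block, and each array left out in turn.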

Additional observations from a re-analysis of the deposited data

Results flagged for a closer look

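Klf10, a transcription factor that the clock drives in liver, read 7.35 and 7.29 on the wild-type arrays, 6.62 and 6.81 on the SHP-/- arrays, 6.41 and 6.49 on those of OB-/- and 7.01 and 6.97 on those of OB-/-/SHP-/-. It was picked out because SHP loss had different effects with and without leptin in the interaction test: -0.61 ± 0.13 in leptin-intact and 0.54 ± 0.13 in leptin-null mice, a difference of 1.15 ± 0.19 (adjusted p = 0.0198). Neither effect passed by itself (adjusted p = 0.117 and 0.0754), and the interaction was lost without any single array except SHP-/- replicate 2 and OB-/-/SHP-/- replicate 2 (adjusted p up to 0.123).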

How the results depend on the processing

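Counts of members called, of 10 unless stated, changed as follows. The share of all genes called in the same fit stands in brackets. In OB-/- minus wild-type the count of 1 (16.9%) became 0 (18.1%) under quantile normalisation. It became 2 (20.5%) in a fit to only the arrays compared, where Dbp joined. In OB-/-/SHP-/- minus SHP-/- the count of 2 (10.6%) became 1 (10.4%) under quantile normalisation and 1 of 8 (15.6%) with the filter on dim genes. It became 0 (9.31%) with the mean of probe sets and 1 (4.96%) with only the arrays compared. In OB-/-/SHP-/- minus OB-/- the count of 1 (2.14%) became 0 (1.91%) with the mean of probe sets. In OB-/-/SHP-/- minus wild-type the count of 3 (15.9%) became 1 (14.5%) with the mean of probe sets and 5 (13.3%) with only the arrays compared. It was also 5 (16.1%) without the SHP-/- genotype, an alternative chosen after seeing the data. For averaged leptin loss the count of 3 (26.4%) became 1 (25.6%) with the mean of probe sets. Both counts of 3, in that order, became 2 under quantile normalisation (17.1% and 26.7%) and with equal array medians (16.9% and 27.2%). They became 2 of 8 with the filter on dim genes (23.1% and 36.3%). That for averaged leptin loss was also 2 with eBayes trend (27%). With each array left out in turn, the counts ran from 0 to 2 in SHP-/- minus wild-type, 0 to 1 in OB-/-/SHP-/- minus OB-/-, 0 to 1 in OB-/- minus wild-type, 1 to 4 in OB-/-/SHP-/- minus SHP-/-, 0 to 5 in OB-/-/SHP-/- minus wild-type, 0 to 6 for averaged leptin loss and 0 to 2 for averaged SHP loss. Such fits leave 1 array in a genotype, and the share of all genes called moved between them too. With an array left out, Dbp in OB-/-/SHP-/- minus SHP-/- ran from -1.14 to 0.91. The other Npas2 probe set reversed its sign, at -0.059 in OB-/-/SHP-/- minus SHP-/- and -0.053 for averaged leptin loss. Beyond the smaller number of arrays or genes tested, the cause was not tested. Of 1154 alternative values of members that were not called, 89 changed sign without passing. A fit to only the arrays compared was not run for the interaction and the averaged comparisons, which use every genotype.

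The replicate number as a block left 2 members called for averaged leptin loss, beside 26.4% of all genes. It left 2 in OB-/-/SHP-/- minus wild-type, beside 15.8%. Each count had been 3. Per2 (adjusted p = 0.0518) missed the limma threshold in the former and Npas2 (0.0520) in the latter. Differences between replicates correlated across genes at r from -0.107 to 0.196 between genotypes, so the numbers were not taken to pair the arrays.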
